A study of Arabidopsis thaliana with 9 samples.

Results

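The windows described here are 500 bp stretches of the Arabidopsis thaliana pericentromeres in which small RNA (sRNA) bound to ARGONAUTE 3 (AGO3) was at least 4 times as abundant as in a control immunoprecipitate. A window was taken when it lay within 2.5 Mb of 15, 4, 14, 4 or 12 Mb on chromosomes 1 to 5 and its ratio of RPM plus 1, AGO3 over control, was 4 or more. RPM is the read count of a window scaled to 1000000 reads per library. The rule found 252 windows, which are the members below, among 50000 pericentromeric windows and 238296 nuclear windows of the TAIR10 build. The share is 0.504% of pericentromeric windows, beside 0.551% of all nuclear windows. The members were chosen by their AGO3 and control RPM, so that share and their ratios are a description and carry no test.

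All material was silique, the fruit that holds the developing seeds, of the Columbia-0 background, taken 1 to 5 days after pollination. AGO3 sRNA was recovered on Flag beads from ago3-3 plants carrying pAGO3:FHA-AGO3, a tagged AGO3 under its own promoter. The control immunoprecipitate and the total sRNA came from wild-type siliques, so genotype and immunoprecipitation cannot be told apart between the AGO3 and control libraries, and the 3 sRNA libraries, 1 of each kind, had no replicate. Messenger RNA (mRNA) was measured in plants homozygous for ago3-3, heterozygous for it and wild type, with 2 biological samples each. The AGO3 immunoprecipitate held 37189850 reads, the control 25613847 and total sRNA 40262802, and the mRNA libraries held 30338416 to 36258980 counts. AGO3 mRNA stood at 2.11 and 3.29 CPM (counts scaled to 1000000 per library) in the homozygous samples, 12.6 and 12.04 in the heterozygous and 30.4 and 17.7 in the wild type. The genotypes did not overlap, and the difference of homozygous from wild type was -3.15 ± 0.31 (SE) on the log2 scale (edgeR quasi-likelihood test, adjusted p = 0.142). DESeq2, an alternative test, called AGO3 in that comparison. Markers of fruit wall, seed coat and endosperm were all detected in silique mRNA, and 1 of 3 embryo markers stayed under 1 CPM in every library.

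Pericentromeres are the transposon-rich, densely packed regions that flank the centromeres. In plants, RNA polymerase IV, RDR2 and DCL3 make short interfering RNAs from such regions, and ARGONAUTEs of the AGO4 type bind them and guide DNA methylation back to the same loci. An ARGONAUTE immunoprecipitate samples the sRNAs one protein holds, whereas a total library samples all of them.

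The members held a small part of pericentromeric sRNA, but a larger part of what AGO3 held there. They carried 886777 AGO3 reads, 59518 control reads and 179207 total sRNA reads, which are 10.4%, 0.915% and 1.80% of the pericentromeric reads of each library. The gap between the AGO3 and control shares follows from the rule. The gap between the AGO3 and total shares also rests on the AGO3 library that chose the windows, so neither carries a test. Their levels ran from 3.15 to 1171 RPM in the AGO3 library, with a median of 28.4 RPM. In the control they ran from 0 to 175.3 RPM with a median of 2.46 RPM, and in total sRNA from 0 to 337.5 RPM with a median of 4.41 RPM. The ratio over the control ran from 4.005 to 35.05 with a median of 7.52. Most ratios were moderate: 51 members lay under 5, 74 reached 10 and 15 reached 20. In 7 members the control held 0 reads, which allows up to 0.117 RPM there (3 reads, counting error only).

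Total sRNA, which the rule did not use, rose with both the AGO3 and the control level across the members. Over the 252 windows the Pearson correlation of log10(RPM + 1) was 0.946 between AGO3 and total sRNA, 0.933 between AGO3 and control and 0.964 between total sRNA and control. The windows share their depth and length, neighbouring windows share loci, and the AGO3 and control values also chose them. All 252 members had a higher RPM in the AGO3 library than in total sRNA. The ratio of RPM plus 1 over total sRNA ran from 1.95 to 14.8 with a median of 4.83, and 161 members, 63.9%, reached 4. Of all pericentromeric windows with enough reads to meet the rule 3.07% reached 4 over total sRNA, but this ratio shares the AGO3 library with the rule, so nothing further is read from the gap. Total sRNA exceeded the control, as RPM, in 233 members, and its median ratio of RPM plus 1 over the control was 1.60. Low control RPM is part of the rule, so this difference is partly fixed by it, and in the other windows with enough reads the medians of the total and control libraries were 7.03 and 6.99 RPM.

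A window with fewer than 112 AGO3 reads cannot reach the ratio even with an empty control, and 6739 pericentromeric windows were at or above that number. Of these, 3.74% were members, against 10.5% of the 10088 such windows on chromosome arms. The 6487 other pericentromeric windows with enough reads had median levels of 5.92 RPM in the AGO3 library, 6.99 RPM in the control and 7.03 RPM in total sRNA. The read minimum is on AGO3 reads, which members can meet with little total sRNA, so the lower total sRNA of the members is partly set by it. Over all 50000 pericentromeric windows the median of total sRNA was 0.720 RPM, below the 4.41 RPM of the members. Enriched arm windows, 1062 in number, had a median ratio of 7.89, close to that of the members, and a highest ratio of 92.99. Their median total sRNA was 2.22 RPM, below the 4.41 RPM of the members.

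**Figure D1:**
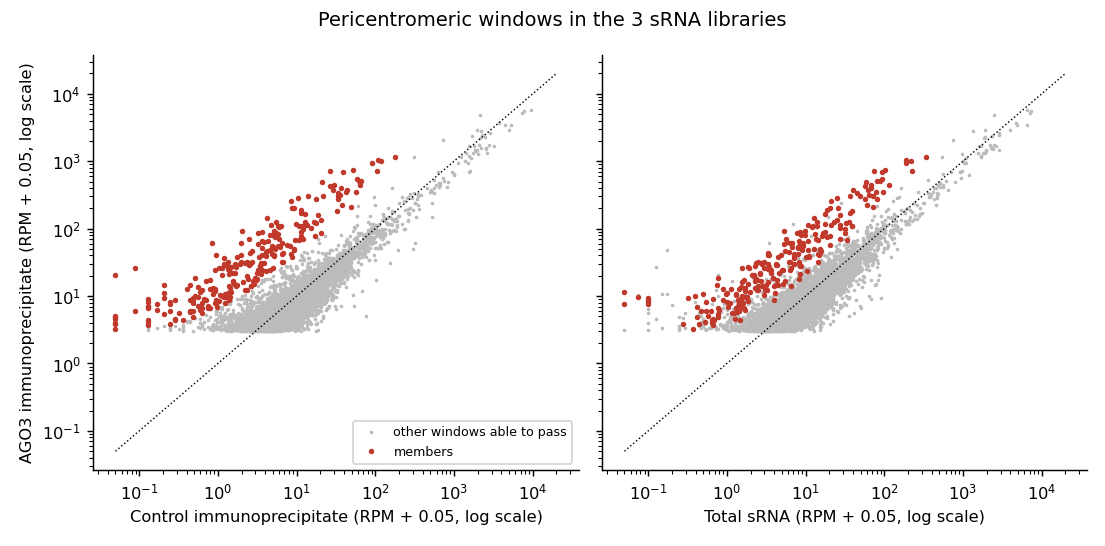
Each point is a 500 bp pericentromeric window with at least 112 AGO3 reads, placed by its RPM in the AGO3 immunoprecipitate (vertical) and in the control or total sRNA library (horizontal), all on log axes with 0.05 added. The 252 members (red) lie above the dotted line of equal RPM in both panels, and the highest member reaches 1171 RPM of AGO3 sRNA. Most other windows (grey) lie near the line. A grey window on chromosome 5 with 75729 AGO3 reads stands higher than every member, at a ratio of 2.85 over the control.

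The share of windows that were members was larger at higher AGO3 read numbers, which is partly built into the rule, since reads of AGO3 are its numerator and a window near the minimum passes only with a nearly empty control. It was 0.974% of windows with 112 to 300 AGO3 reads, 4.53% at 300 to 1000, 13.6% at 1000 to 3000 and 25.4% above that. On the arms the same shares were 4.90%, 11.5%, 19.7% and 34.8%, higher in each range. By total sRNA the order was not a steady one. Among windows that could meet the rule, 38.6% of those with under 30 total reads were members, 14.2% at 30 to 100, 1.93% at 100 to 300 and 6.11% at 3000 or more. The first of these ranges holds only 83 windows, and all of them combine at least 112 AGO3 reads with few total reads.

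Members lay away from the centre of the pericentromeres. Within 0.5 Mb of the chosen centres there were 17 members, 1.31% of the windows with enough reads, and at 1.5 to 2 Mb there were 92, or 5.29%. At 2 to 2.5 Mb there were 56, or 4.07%. The median total sRNA of the windows with enough reads was 6.53 RPM in the innermost range and 7.45 RPM at 1.5 to 2 Mb. The sides were uneven as well. Chromosome 1 had 54 members to the left of its chosen centre and 2 to the right, chromosome 4 had 6 and 39, and chromosome 5 had 13 and 44. Chromosomes 2 and 3 were more even, with 37 and 27 and with 13 and 17. The centres are round numbers, so a side is a position on the map and not a chromosome arm. Chromosome 3 had the fewest members, 30, or 1.99% of its windows with enough reads, and chromosome 2 the most, 64, or 5.29%.

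**Figure D2:**
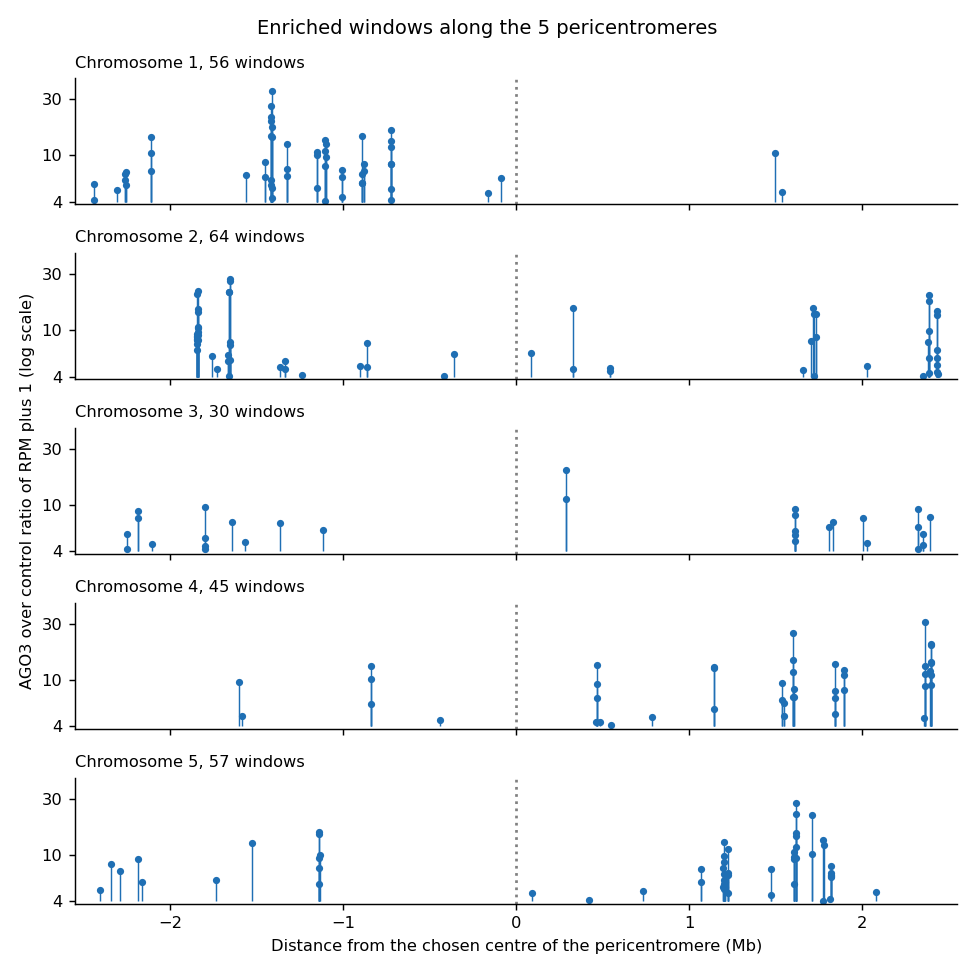
Each point is 1 member, placed by its distance from the chosen centre of its pericentromere in Mb (horizontal) and its ratio of RPM plus 1, AGO3 over control (vertical, log axis). The points stand in narrow stacks of neighbouring windows, few lie within 0.5 Mb of the centre (dotted line), and on chromosome 1 54 of 56 lie on the left.

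Members came in clusters. Another member stood directly beside 182 of them, 72.2%, and the same held for 68.6% of enriched arm windows. Of the 6487 other pericentromeric windows with enough reads, a far larger set, 63.8% stood beside another of that set. In the reverse direction, 78 pericentromeric windows had a ratio of 4 or more for the control over AGO3, and 14.1% of those stood beside another such window. The members formed 127 unbroken runs, of which 70 were a single window and 17 were 4 windows or longer, and the longest held 8. Members in runs of 4 or more had a median of 61.4 RPM of AGO3 sRNA and a ratio of 9.62, and single ones 10.6 RPM and 5.47. Their total sRNA differed in the same order, with medians of 9.19 and 1.58 RPM. The rule used AGO3 reads and the ratio, and windows with more AGO3 reads met it more often. Longer runs at higher AGO3 levels are thus partly built into the rule. Just outside the runs were 234 non-member windows, of which 81 had enough reads to be members. The median ratio of those 81 was 2.39, against 0.920 in the remaining pericentromeric windows with enough reads, and 53 of them, 65.4%, reached 2 against 3.47%. The read minimum acts on the numerator of the ratio, so these values do not describe the other flanking windows.

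Reads were concentrated in few places. The 10 members with the most AGO3 reads held 33.7% of all member AGO3 reads and the top 25 held 57.8%, while 79 members had under 500 reads each. Runs separated by 1 non-member window were joined into loci, a step chosen after the data were seen, which gave 107 loci. Of these, 19 held 4 or more members and 116 members between them. The 10 loci with the most members were 3000 to 9500 bp long, held 78 members and had RPM ratios of 9.54 to 31.3 over the control and 5.09 to 11.99 over total sRNA.

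The largest locus lay on chromosome 2 (2152501 to 2162000), with 16 members among 19 windows and 22.7% of all member AGO3 reads. It held 201727 AGO3 reads, 14118 control reads and 42939 total reads. Its RPM ratio over the control was 9.84 (exact binomial 95% interval 9.67 to 10.01, counting error only, as for all ratio intervals here) and over total sRNA 5.09. The transcribed pseudogenes AT2G05730 and AT2G05740 lie in it, per the TAIR10.1 gene table. Its AGO3 reads stood in separate peaks. The windows starting at 2153001, 2158001 and 2160501 held 37414, 35072 and 38228 AGO3 reads, and 3 windows between the peaks held 67, 209 and 76. Total sRNA peaked in the same windows, with 8798, 7707 and 7512 reads.

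The locus with the highest single ratio was on chromosome 1 (13583501 to 13588500), where no gene is annotated. Its 9 members included the longest run, 8 windows. It held 68763 AGO3, 2317 control and 9283 total reads, an RPM ratio of 20.4 (19.6 to 21.3) over the control and 8.02 over total sRNA. Within the run the AGO3 reads per window were 3330, 7446, 660, 26603, 25348, 1177, 2284 and 1393. Control reads in the same order were 93, 221, 61, 675, 982, 169, 20 and 43, and total reads 340, 818, 327, 2943, 3772, 574, 251 and 178. The most read windows did not have the highest ratio: it was 35.05 in the window of 2284 AGO3 reads (13586501 to 13587000) and 4.30 in the window of 1177 just before it.

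The locus at AT2G06020, a protein-coding gene on chromosome 2 (2341001 to 2345500), had the highest ratio among the 10 largest. It held 15831 AGO3, 348 control and 1429 total reads, which gave an RPM ratio of 31.3 (28.2 to 34.9) over the control and 11.99 over total sRNA. Its top window (2342501 to 2343000) had 9538 AGO3, 215 control and 841 total reads. A smaller window of the gene (2343501 to 2344000) had 974 AGO3 reads, 1 control read and 61 total reads. In the windows of the gene, 5 of 8 were members and held 99.3% of its AGO3 reads. AT2G06020 mRNA averaged 0.0406 CPM over the 6 libraries and was too low to test.

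HKT1 (AT4G10310), which encodes a sodium transporter that limits salt in the shoot, lay in a locus of 7 members on chromosome 4 (6394001 to 6397500). AGO3 reads per window were 1114, 910, 6417, 27196, 4619, 2575 and 1196 along the locus. Control reads were 41, 34, 287, 1320, 137, 63 and 68, and total reads 133, 144, 1470, 4105, 562, 224 and 98. All 3 libraries peaked in the same window, and the locus had an RPM ratio of 15.6 (14.9 to 16.3) over the control and 7.08 over total sRNA. Of the 9 windows that HKT1 spans, 4 adjoining ones at one end of the gene were members and held 99.9% of its AGO3 reads, and the other 5 held 26 reads at most. The next 2 windows held no gene, and the last member lay at the end of the neighbouring gene AT4G10320.

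Other large loci differed in what lay at them. The locus at GME, the GDP-mannose epimerase of vitamin C synthesis, on chromosome 5 (10860001 to 10863000) held 67647 AGO3, 4438 control and 11950 total reads, a ratio of 10.5 over the control. It covered 2 windows of GME and 2 of the long non-coding RNA gene AT5G04865. Prx37, a peroxidase gene, had 1 member window, with 248 AGO3 reads and a ratio of RPM plus 1 of 7.11. That window lay in a locus on chromosome 4 (5600001 to 5603500) with 16890 AGO3 reads and an RPM ratio of 20.7. LCR40, which encodes a small cysteine-rich protein, had both of its windows in a locus on chromosome 2 (6431001 to 6435000) with a ratio of 9.87. A locus on chromosome 5 (13613501 to 13616500) had no annotated gene and a ratio of 19.6. On chromosome 3 the highest ratio was 19.9, in a window without a gene (14287501 to 14288000) that held 4166 AGO3, 120 control and 436 total reads. The most read member of all, also without a gene, lay on chromosome 1 (13675501 to 13676000). It had 43560 AGO3, 4491 control and 13587 total reads and a ratio of 6.65, below the median of the members.

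**Figure D3:**
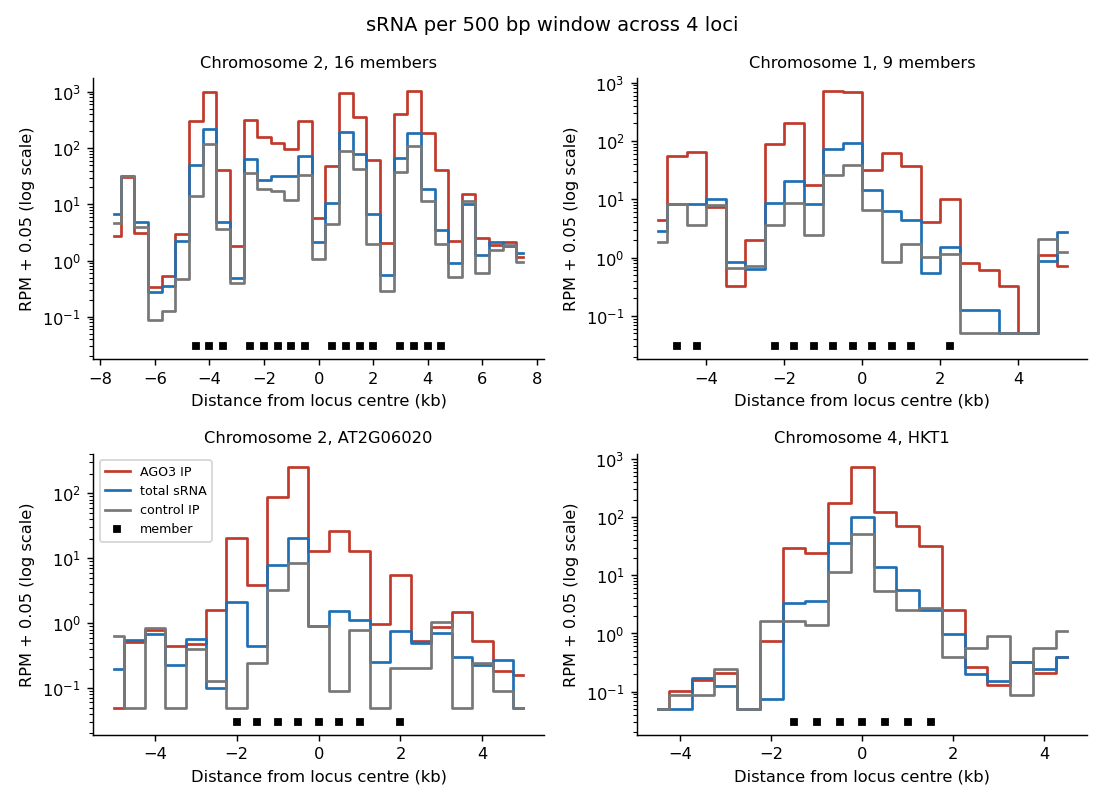
RPM per 500 bp window (vertical, log axis, 0.05 added) in the AGO3, control and total sRNA libraries across 4 loci, by distance from the centre of each locus in kb; black squares mark members, and the 2 leftmost in the chromosome 1 panel belong to a neighbouring locus. The AGO3 line stands above both others over the members and falls toward the other lines outside them. At HKT1 and AT2G06020 the AGO3 and total sRNA lines are highest in the same window, with 731.3 RPM of AGO3 sRNA at HKT1, and at the other loci in different windows.

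Enrichment was not always shared by neighbouring windows with sRNA. On chromosome 4 the member from 6360001 to 6360500 held 3399 AGO3, 50 control and 211 total reads, a ratio of 31.3. The window directly before it held 4739 AGO3, 2095 control and 3769 total reads, a ratio of 1.55. Both windows overlap the protein-coding gene AT4G10210 and the transcribed pseudogene AT4G10201, so adjoining windows of 1 gene lay far apart in ratio.

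A group of small genes on chromosome 5 (13195501 to 13225500) held 15 members, of which 9 lay in 7 protein-coding genes from AT5G34881 to AT5G34908. The members formed 2 stretches, 9500 and 4500 bp long, separated by 16000 bp without a member. The ratio over the control ran from 4.68 to 12.9 in the members and from 0.458 to 1.36 in the stretch between them. The ratio over total sRNA had a median of 3.07, lower than the 4.83 of all members. Some windows of the group had nearly the same counts. The window starting at 13199501 had 4104 AGO3, 270 control and 1582 total reads, and the window starting at 13201501 had 4082, 303 and 1576. How reads that match several places were counted is not given in the sources used here, so these windows may not be independent measurements. Of these 7 genes, none had enough mRNA to be tested.

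At the other end were members that total sRNA hardly showed. In 7 members the total library held 2 reads or fewer while the AGO3 library held 277 to 426 and the control 2 to 31. Such windows made up 2.78% of the members, 4.33% of enriched arm windows and 0.0925% of the other pericentromeric windows with enough AGO3 reads. All 7 stood alone, and their 14 adjoining windows held between 0 and 84 AGO3 reads. In all 7 the control, at 0.0781 to 1.21 RPM, also exceeded total sRNA. The clearest was in CALS5, a callose synthase needed for the pollen wall, with 426 AGO3, 14 control and 0 total reads (chromosome 2, 5703001 to 5703500). The other 24 windows of CALS5 held 12 AGO3 reads at most. The protein-coding gene AT3G30730 had such a window with 277 AGO3, 5 control and 0 total reads, and CHX12, a cation/H+ exchanger, one with 325, 6 and 2. AT3G44326 had 286, 3 and 2, and the long non-coding RNA gene AT5G04405 had 297, 2 and 2. A count of 0 in the total library allows up to 0.0745 RPM, counting error only.

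At nearly the same ratio of RPM plus 1, windows of unlike depth fell on either side of the threshold. The members nearest to it had ratios of 4.005, 4.05 and 4.05, and the windows just below it 3.995, 3.99 and 3.99. The member at 4.005 (chromosome 2, 5718001 to 5718500) held 449 AGO3, 58 control and 127 total reads, and the window at 3.995 (chromosome 1, 16720501 to 16721000) held 123, 2 and 10. The AGO3 and control levels were 12.07 and 2.26 RPM in the member and 3.31 and 0.0781 RPM in the other. Before 1 RPM was added, the window left out thus had the wider ratio.

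How the members compared with other windows in annotation depended on which windows were taken. By the TAIR10.1 gene table, 59 members, 23.4%, overlapped a protein-coding gene, against 10.7% of the other windows with enough reads. Pseudogenes, the class that includes many transposon remnants in this annotation, held 37 members, 14.7%, against 31.8%. Non-coding RNA genes held 9 members, 3.57%, against 2.39%, and 147 members, 58.3%, touched no gene, against 55.1%. Over all 50000 pericentromeric windows, whatever their reads, 20.4% lay in protein-coding genes, 37.7% in pseudogenes and 40.2% in no gene. The share of members in protein-coding genes was thus near that of all pericentromeric windows, and above that of the windows with enough reads alone, while the share in pseudogenes was below both. Counted the other way, 7.83% of protein-coding windows with enough reads were members, 1.76% of those in pseudogenes, 5.49% of those in non-coding RNA genes and 3.95% of those with no gene. On the arms the same order held at the ends, with 13.1% in protein-coding genes and 0.972% in pseudogenes. These are shares of windows in 1 library of each kind, with neighbouring windows counted separately, and were not tested. Within 1.5 Mb of the centres the share of members in protein-coding genes was 16.3%. The median ratio of the members was 8.74 in protein-coding genes, 7.01 in pseudogenes and 7.07 where there was no gene. Exons, introns and untranslated regions were not separated, since the gene table gives whole genes.

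**Figure D4:**
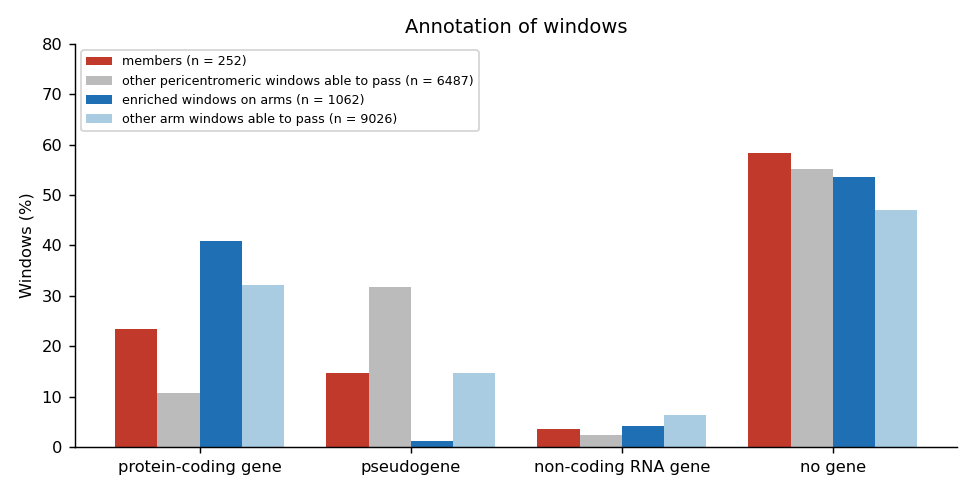
Percent of windows (vertical, from 0) that overlap each class of gene, for the 252 members, other pericentromeric windows with at least 112 AGO3 reads, enriched arm windows and other arm windows; a window that overlaps 2 classes is counted in 1. Members are in protein-coding genes in 23.4% of cases and in pseudogenes in 14.7%, and the other pericentromeric windows in 10.7% and 31.8%.

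The genes at the members gave an independent readout, mRNA in the ago3-3 plants. Members overlapped 71 genes: 39 protein-coding, 23 pseudogenes, of which 8 are annotated as transcribed, 6 long non-coding RNA genes, 2 other non-coding RNA genes and 1 tRNA gene. Of the 71, 48 were rows of the mRNA table, 12 of them at 0 in all 6 libraries, and 21 passed the filter on low counts, all protein-coding. The share of protein-coding genes tested was 53.8%, against 54.5% of the 2142 protein-coding genes of the pericentromeres.

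None of the 21 passed the test in any comparison (edgeR quasi-likelihood, adjusted over 22702 genes). The background was also 0%: no gene of the table passed in edgeR, AGO3 included. At an unadjusted p under 0.05 there was 1 of the 21 when homozygous samples were set against wild type (5.70% of all genes), there were 2 when heterozygous samples were (4.43%), and 0 when the mutant genotypes were set against each other (3.28%). In the same order DESeq2 called 76, 18 and 23 genes in the table, 0.465%, 0.235% and 0.111% of those it gave an adjusted p. AGO3 was among the 76 and the 23. DESeq2 called 0 of the 21, of which 8, 5 and 15 had an adjusted p there. The median log2 difference of the 21 genes, homozygous minus wild type, was -0.10 with 8 genes higher and 13 lower, beside 0.01 for all genes tested. Without homozygous replicate 2 it was 0.02. The heterozygous minus wild type median was -0.02, with 10 higher and 11 lower, and homozygous minus heterozygous was -0.01, also with 10 and 11. The comparisons share samples, so their values are set side by side only.

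HKT1 had 2.89 and 3.69 CPM in the wild type, 4.71 and 5.39 in the heterozygous and 5.71 and 4.33 in the homozygous samples. Both wild-type samples lay below all 4 samples that carry ago3-3, and those 4 overlapped. The log2 difference from wild type was 0.61 ± 0.25 (SE) in the homozygous (edgeR adjusted p = 0.862) and 0.62 ± 0.25 in the heterozygous (edgeR adjusted p = 0.955). Neither passed the threshold, and HKT1 was among the genes under an unadjusted 0.05 in both. AT4G10210, the gene with the window of ratio 31.3, had 2.81 and 1.75 CPM in the wild type, 1.25 and 2.06 in the heterozygous and 0.833 and 1.47 in the homozygous samples. Its homozygous minus wild type difference was -0.99 ± 0.46 (SE, edgeR adjusted p = 0.875), and the homozygous samples lay below both wild-type ones. AT4G10220, beside it, had 3.13 and 3.40 CPM in the wild type, 2.45 and 2.26 in the heterozygous and 2.47 and 2.77 in the homozygous samples, with no overlap between wild type and the other genotypes. Its differences from wild type were -0.47 ± 0.26 in the heterozygous and -0.32 ± 0.26 in the homozygous, with adjusted p = 0.955 and 0.919 (edgeR).

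Low genes gave the widest differences and the widest errors. AT3G44326, one of the genes whose lone member had 2 total sRNA reads, had 0.135 and 0.859 CPM in the wild type and 0.0298 and 0.123 in the homozygous samples, a difference of -2.62 ± 1.18 (SE, edgeR adjusted p = 0.862). AT2G14846 had 0.919 and 0.537 CPM in the wild type and 0.114 and 0.310 in the heterozygous samples, a difference of -1.77 ± 0.71 (SE, edgeR adjusted p = 0.955). Both rest on few reads per library. The abundant genes moved little: AT4G10320 had 177.8 to 191.8 CPM over the 6 libraries, GME 118.7 to 140.0, and AT1G36730 88.5 to 106.0. Their homozygous minus wild type differences were 0.02 ± 0.10, 0.02 ± 0.12 and -0.06 ± 0.11. Of the 16 windows of AT4G10320, 1 was a member, and the RPM ratio over the control across them was 3.70. For GME it was 2 of 6 windows and a ratio of 14.5. ACC2, an acetyl-CoA carboxylase, had 14.9 CPM ± 0.162 (SD, n = 2) in the wild type and 18.2 ± 2.59 (SD, n = 2) in the homozygous samples, which did not overlap. The log2 difference was 0.28 ± 0.15 (edgeR adjusted p = 0.879). Only 1 of the 27 windows of ACC2 was a member, and the RPM ratio over the control across them was 3.17. CALS5 had 4.16 and 3.19 CPM in the wild type and 3.51 and 2.67 in the homozygous samples, which overlapped.

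**Figure D5:**
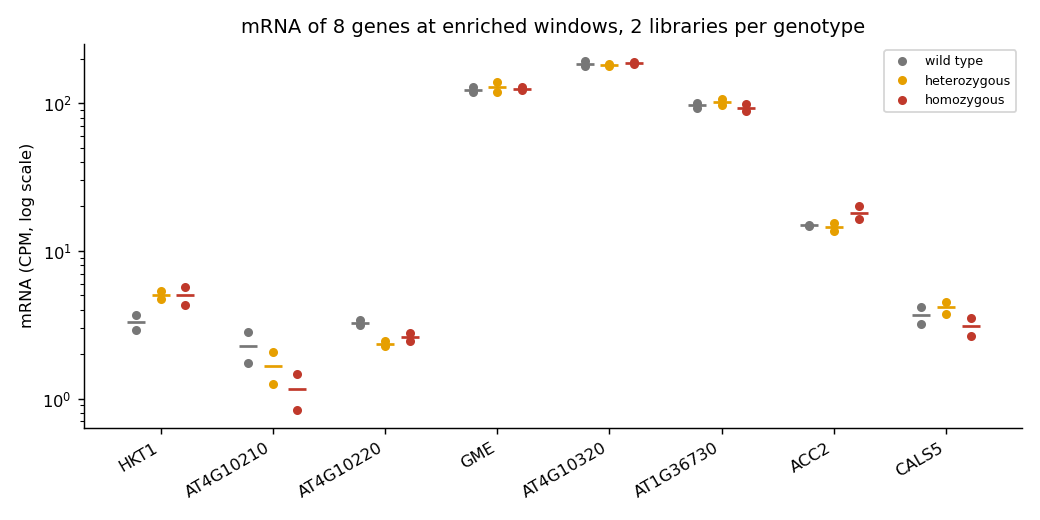
mRNA in CPM (vertical, log axis) of 8 genes that overlap members, in the 2 libraries of each genotype (points) with their mean (bar). The wild-type points of HKT1, 2.89 and 3.69 CPM, lie below the other 4, and those of AT4G10320, GME and AT1G36730 overlap the points of the other genotypes.

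None of the genes of the silencing pathways passed the edgeR test. The lists held 22 genes of RNA-directed DNA methylation, 14 of heterochromatin maintenance and 10 of post-transcriptional silencing. Of these, 2, 0 and 0 lie in a pericentromere, so the others could not overlap a member, and neither of the 2, DCL3 and CLSY1, did. All 46 were tested with edgeR, and 0 passed in any comparison, against a background of 0%. At an unadjusted p under 0.05 there were 2 for homozygous and 5 for heterozygous samples against wild type, and 1 between the mutant genotypes. The shares of all genes were 5.70%, 4.43% and 3.28%. DESeq2 called 0, 1 and 0 of the 45, 24 and 46 to which it gave an adjusted p. It called 0.465%, 0.235% and 0.111% of all genes with an adjusted p. The 1 was IDN2, whose protein binds double-stranded RNA in that methylation pathway, named after its values were seen. It had 34.8 and 33.8 CPM in the wild type, 48.02 and 52.6 in the heterozygous and 42.4 and 39.1 in the homozygous samples, with no overlap between genotypes. Its heterozygous minus wild type difference was 0.55 ± 0.11 (SE, edgeR adjusted p = 0.955, DESeq2 adjusted p = 0.0371). For homozygous minus wild type, 17 of the 22, 11 of the 14 and 9 of the 10 were higher, beside 51.7% of all genes. Their median log2 differences were 0.10, 0.07 and 0.11, beside 0.01 for all genes. For heterozygous minus wild type, 16, 11 and 6 were higher, beside 49.4% of all genes. The medians there were 0.06, 0.10 and 0.06, beside -0.003 for all genes. For homozygous minus heterozygous the medians were -0.04, -0.02 and 0.05. Pollen markers did not pass the edgeR test in any comparison, with 3 of 4 under an unadjusted 0.05 between homozygous and wild type, 0 between heterozygous and wild type and 4 between the mutant genotypes. DESeq2 called 2, 0 and 1 of the 3, 1 and 4 to which it gave an adjusted p. The shares of all genes are those given above for the silencing lists. Their summed level was 65.8 to 98.4 CPM in the homozygous, 129.9 to 176.3 in the heterozygous and 135.4 to 165.3 in the wild-type samples, and all 4 markers had lower fitted values in the homozygous samples than in the wild type. The part of this in any mRNA difference above was not tested, and in whole siliques fewer cells of a type and less RNA per cell cannot be told apart.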

How the data were processed

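The members and all gene lists were chosen with earlier results of these data known. The deposited sRNA table gives the authors' read counts per 500 bp window, and the deposited mRNA table the authors' unscaled estimated counts per gene, of which 7.88% were not whole. The submitters' processing notes name Bowtie, HISAT2, featureCounts and TAIR10; versions, read lengths, mismatches, strand and how multiply matching reads were counted were not given in the sources used here. RPM was computed per library over chromosomes 1 to 5, and 1 RPM was added before each ratio. Windows were placed at genes by the TAIR10.1 table, with an overlap of at least 1 bp; coordinates are those of the sRNA table, counted from 1. Intervals of ratios are exact binomial 95% intervals of the reads of 2 libraries, cover counting error only and compare libraries, not conditions. With 1 sRNA library per kind no test of windows was made.

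Estimated counts were rounded. All 6 mRNA libraries were fitted together (edgeR 4.0.16, TMM, filterByExpr, quasi-likelihood test, Benjamini-Hochberg at 0.05; R 4.3.3, limma 3.58.1), with 3 residual degrees of freedom, and 22702 of 34262 rows were tested. DESeq2 1.42.0, other filters, left-out libraries and a replicate block were alternatives, with other pseudocounts, totals, ratios and widths for windows. Scripts were tested on simulated data. Named windows were those with the 10 largest ratios, the 5 most AGO3 and 5 most total reads, the 3 longest runs, the largest ratio per chromosome and the 3 on each side of the threshold. Named mRNA genes were those at such windows and, of the tested genes at members, the 10 most abundant and up to 5 rising and falling with the smallest p. The chromosome 5 group, the member beside a window of ratio 1.55, the members with 2 or fewer total reads and the larger loci were chosen after their values were seen. Tables and plots were made with pandas 2.3.3, matplotlib 3.10.9, numpy 2.4.6 and scipy 1.17.1 under Python 3.11.15.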

Additional observations from a re-analysis of the deposited data

How the results depend on the processing

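The read minimum, 112 AGO3 reads in the main setting, changed with the setting, so shares of windows with enough reads have different denominators. With 0.5 RPM added the minimum was 56 AGO3 reads, and the 329 members were 2.61% of such windows. Of these members 63.2% stood beside another, and their median total sRNA was 2.61 RPM. With 5 RPM added the minimum was 558 AGO3 reads. There were then 132 members, 9.61% of such windows, with a median total sRNA of 12.2 RPM. Totals without the 100 most read windows gave a minimum of 65 AGO3 reads and 293 members. These were 2.64% of such windows, and 65.9% of them stood beside another. Median ratio scaling gave 73.0% of members at 4 or more over total sRNA. A ratio of at least 8 left 115 members, with a median total of 8.44 RPM and 90.4% at 4 or more over total sRNA. Within 1.5 Mb there were 104 members, 2.87% of the windows with enough reads, and 16.3% of them lay in a protein-coding gene. Leaving out the largest locus, an alternative chosen after seeing the data, left 236 members and moved none of these values beyond its counting interval. For mRNA, homozygous against wild type, 4 genes of the table passed without the filter and 76 with DESeq2; DESeq2 called 18 between heterozygous and wild type and 23 between the mutant genotypes. The median of the genes at members, homozygous minus wild type, was 0.00 without the filter and with DESeq2, both over more genes, -0.031 for genes within 1 kb and -0.056 at a ratio of 8. For heterozygous minus wild type it was 0.061, 0.068 and 0.028 without the filter, with DESeq2 and within 1 kb. Leaving out each library gave 0 to 3, 0 to 4 and 0 to 1 calls and medians of -0.14 to 0.018, -0.047 to 0.0065 and -0.17 to 0.027, in the order of the DESeq2 counts; the most calls came without wild type replicate 2 in the first 2. The causes were not tested. Replicate numbers did not pair the samples (correlations of -0.09, -0.36 and -0.04), and with a replicate block the calls were 0, 0 and 0 and the medians -0.10, 0.01 and -0.02. Depth limits single windows most: 3 reads were 0.0807, 0.117 and 0.0745 RPM in the AGO3, control and total libraries.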
